A study of Mus musculus with 8 samples.

Results

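The genes described here encode the calcitonin family of peptides and their receptors in the glomeruli of mice with and without *Cd151*. Members were every probe whose gene symbol was *Calca*, *Calcb*, *Adm*, *Calcr*, *Calcrl*, *Ramp1*, *Ramp2* or *Ramp3*, which gave 8 genes and 14 probes of 18120 gene symbols and 25697 probes on the array. The family was chosen by way of *Calca*, whose difference between the genotypes on these same arrays was already known, so the differences of the members between the genotypes are given as descriptions, with standard errors and no p-value. The mice were male, on the FVB/N background and 3 weeks old, with 4 *Cd151*+/+ controls, 4 *Cd151*-/- animals and 1 array for each. In what follows each genotype has its mice numbered from 1 to 4. *Cd151* encodes a tetraspanin that binds laminin-binding integrins, and the comparison addressed which transcripts differ early in the glomerular disease of mice that lack it. The labels give the deletion as homozygous and name no promoter or cell type that limits it. The glomeruli had been collected with magnetic beads perfused through the heart, so each value is an average over podocytes, endothelial cells, mesangial cells and any tubule carried over. In such bulk RNA, fewer cells of a type and less RNA per cell cannot be told apart.

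Peptides of this family signal through class B G protein-coupled receptors that raise cyclic AMP. *Calca* gives rise to calcitonin or to alpha-calcitonin gene-related peptide (CGRP) by alternative splicing, *Calcb* encodes beta-CGRP and *Adm* encodes adrenomedullin, a vasodilator peptide. The calcitonin receptor-like receptor, from *Calcrl*, reaches the cell surface only with a receptor activity-modifying protein: with *Ramp1* it is the CGRP receptor, and with *Ramp2* or *Ramp3* it binds adrenomedullin. The calcitonin receptor, from *Calcr*, binds calcitonin alone and amylin when paired with a RAMP. Endothelial cells are a well-known site of *Calcrl* and *Ramp2*.

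The arrays, Illumina MouseRef-8 v1.1 BeadChips, gave a brightness for each probe and a detection p-value, the share of the negative-control probes of the array that were at least as bright. A probe is called detected here at a detection p-value of 0.05 or lower. Levels are log2 of the signal after background correction and quantile normalisation, with a constant of 16 added, which shrinks the differences of dim probes. Between 11291 and 12359 probes were detected per array, and the median detected probe was 3.00 to 4.46 times the background. The arrays formed a pair of sets by background. It was 123 to 135 units of brightness for mice 3 and 4 of the *Cd151*+/+ group together with mice 1 and 2 of the *Cd151*-/- group, and 59.0 to 69.5 on the other 4, so each set held 2 mice of each genotype. Values within each set are given beside the pooled differences of the detected members. All 3 probes for *Cd151* were detected in every *Cd151*+/+ mouse (4 of 4) and in no *Cd151*-/- mouse (0 of 4), with the brightest at 14.37 ± 0.24 (SD, n = 4) in *Cd151*+/+ and 4.57 ± 0.08 (n = 4), not above background, in *Cd151*-/-.

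Of the 8 genes, 5 were detected on at least 1 array: the ligand genes *Calca* and *Adm* and all 3 genes for receptor activity-modifying proteins. The ligand gene *Calcb* and both genes for the receptors themselves, *Calcr* and *Calcrl*, were detected on 0 of 8 arrays. The *Calcb* probe, ILMN_1252436, read 0.845 to 1.05 times the background over the 8 arrays, the 3 *Calcr* probes, ILMN_3120532, ILMN_3045078 and ILMN_2776007, 0.876 to 1.11 times and the *Calcrl* probe, ILMN_1235390, 0.729 to 0.963 times. A probe at background gives no level for its gene, and a poorly binding probe and an absent transcript cannot be told apart with 1 probe per gene, as for *Calcb* and *Calcrl*. No difference between the genotypes is given for these genes.

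**Figure D1:**
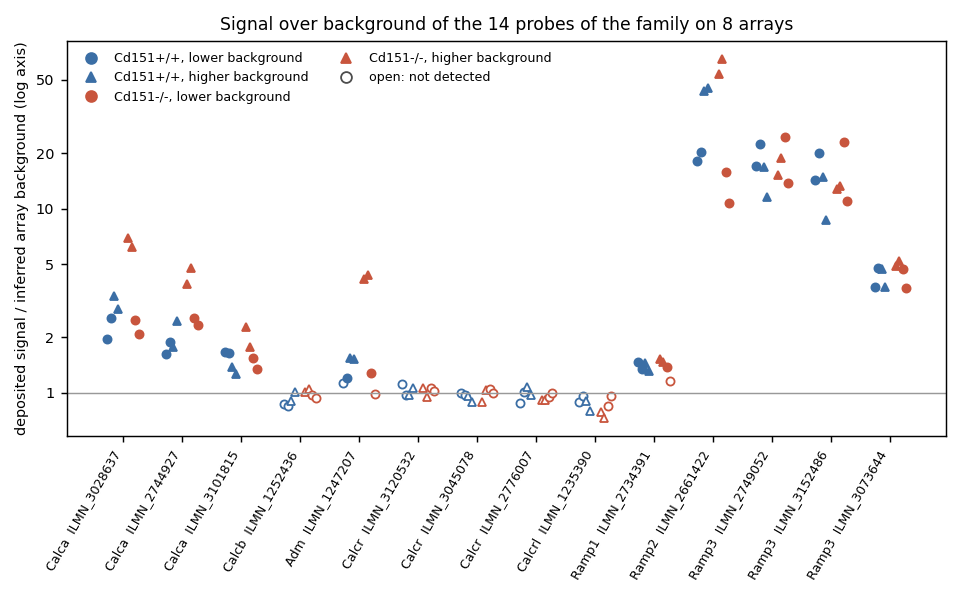
Deposited signal over the inferred background of the array (log axis) for each of the 14 probes on the 8 arrays, coloured by genotype and shaped by set of arrays, with open symbols where the probe was not detected. The *Calcb*, *Calcr* and *Calcrl* probes lay at the background on every array, from 0.729 to 1.11 times it.

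*Calca* was higher in *Cd151*-/- than in *Cd151*+/+ glomeruli in the means of all 3 of its probes, but the genotypes were apart in only 1 of them. On that probe, ILMN_2744927, *Cd151*+/+ mice 1 to 4 read 6.99, 7.31, 6.67 and 7.00 and *Cd151*-/- mice 1 to 4 read 7.87, 8.19, 8.03 and 7.68. The lowest *Cd151*-/- mouse lay above the highest *Cd151*+/+ mouse. The means were 6.99 ± 0.26 and 7.94 ± 0.22 (SD, n = 4 each), a difference of 0.95 (SE 0.22), or 1.93-fold. It was 0.70 within the arrays of lower background and 1.19 within those of higher background. Leaving out each mouse in turn gave differences of 0.84 to 1.06.

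The brightest *Calca* probe, ILMN_3028637, read 7.49, 7.97, 8.17 and 7.31 in *Cd151*+/+ mice 1 to 4 and 8.87, 8.64, 7.97 and 7.44 in *Cd151*-/- mice 1 to 4. *Cd151*-/- mice 1 and 2 were above every *Cd151*+/+ mouse, whereas *Cd151*-/- mice 3 and 4 lay among them. The means were 7.74 ± 0.41 and 8.23 ± 0.65 (n = 4 each), a difference of 0.49 (SE 0.34). Within the arrays of lower background the difference was -0.02, and within those of higher background 1.01, so the pooled value came from the latter set.

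The dimmest *Calca* probe, ILMN_3101815, read 7.07, 6.94, 5.83 and 5.30 in *Cd151*+/+ mice and 6.75, 6.13, 6.79 and 6.14 in *Cd151*-/- mice. The *Cd151*-/- values lay inside the *Cd151*+/+ range. Its difference was 0.17 (SE 0.39), from -0.54 within the arrays of lower background to 0.88 within those of higher background, and it turned to -0.16 when *Cd151*+/+ mouse 4 was left out.

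The 3 *Calca* probes did not order the mice alike. Pearson's r between pairs of them over the 8 mice was 0.50, 0.23 and 0.28, and 0.22, 0.19 and 0.37 with genotype means removed. These are correlations between probes that share the same arrays and are given as a description. The array's annotation lists 1 target entry for ILMN_3028637 and ILMN_3101815 and another for ILMN_2744927. Which of the calcitonin and CGRP transcripts each probe binds was not analysed here. The genotype difference therefore stands for the probe that showed it, and the other probes for the gene gave smaller values with larger errors.

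*Adm* was close to the detection limit in most mice and well above it in a pair of *Cd151*-/- mice. Its 1 probe, ILMN_1247207, read 5.18, 5.61, 6.27 and 5.82 in *Cd151*+/+ mice 1 to 4 and 7.97, 8.05, 6.02 and 4.65 in *Cd151*-/- mice 1 to 4. It was detected in 3 of 4 mice of each genotype and missed in *Cd151*+/+ mouse 1 and *Cd151*-/- mouse 4. *Cd151*-/- mice 1 and 2, both on arrays of higher background, were above all other mice, and *Cd151*-/- mouse 4 was below all other mice. The means were 5.72 ± 0.45 and 6.68 ± 1.64 (n = 4 each), and the difference of 0.96 (SE 0.66) was 1.97 within the arrays of higher background and -0.06 within those of lower background. On the deposited scale, *Cd151*-/- mice 1 and 2 read 4.13 and 4.38 times the background of their arrays, against 0.981 to 1.55 times in the other 6 mice. *Calca* ILMN_3028637 was also highest in those mice.

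**Figure D2:**
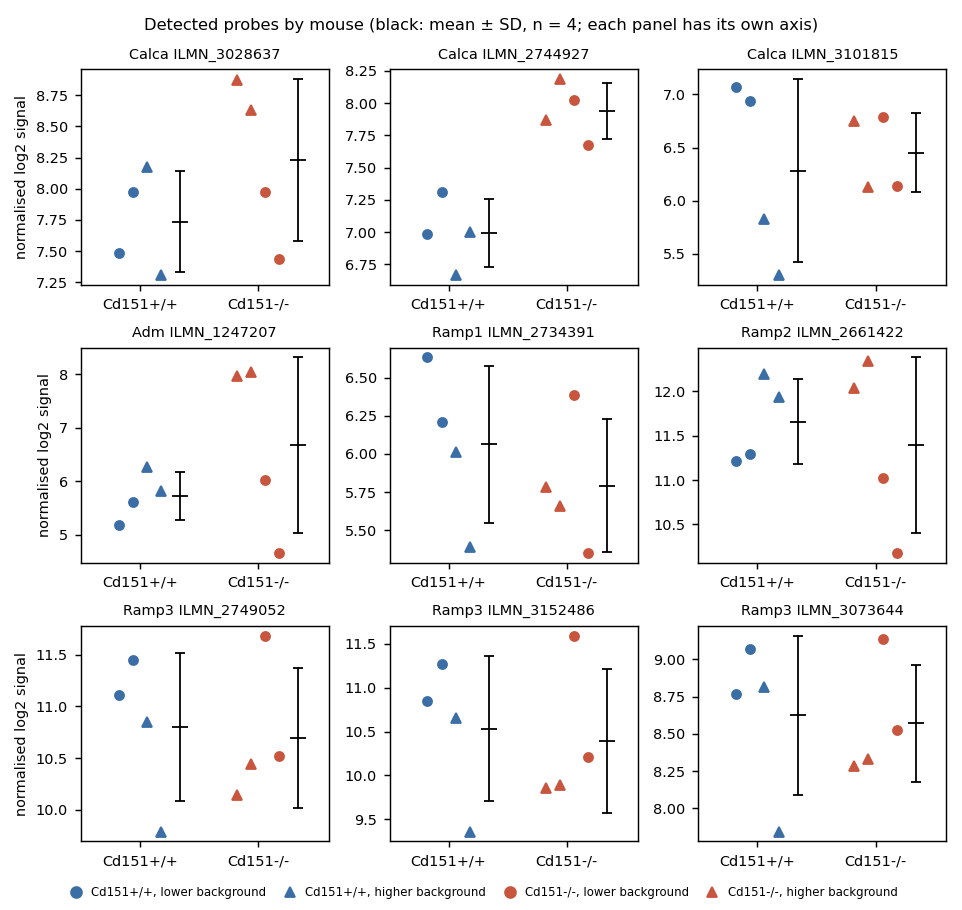
Normalised log2 signal of the 9 detected probes in each mouse, by genotype and set of arrays, with the mean and SD of 4 mice beside each group and a separate axis for each probe. The genotypes are apart for *Calca* ILMN_2744927, *Adm* is high in *Cd151*-/- mice 1 and 2 (7.97 and 8.05), and *Ramp2* follows the set of arrays in both genotypes.

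Among the receptor activity-modifying proteins, none of the 3 genes had genotypes that were apart. *Ramp1*, the partner for CGRP, was dim. Its probe, ILMN_2734391, read 6.63, 6.21, 6.01 and 5.39 in *Cd151*+/+ mice and 5.78, 5.66, 6.38 and 5.35 in *Cd151*-/- mice, the last of which was not detected. The ranges overlapped almost wholly, and the difference was -0.27 (SE 0.31), or -0.56 within the arrays of lower background and 0.02 within those of higher background.

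*Ramp2*, the partner that makes the receptor an adrenomedullin receptor, differed between the sets of arrays far more than between the genotypes. ILMN_2661422 read 11.21, 11.29, 12.19 and 11.94 in *Cd151*+/+ mice 1 to 4 and 12.04, 12.34, 11.02 and 10.17 in *Cd151*-/- mice 1 to 4. All 4 mice on the arrays of higher background lay above all 4 on the others, with set means of 12.13 and 10.92. Sets that did not overlap in this direction were seen for 13.6% of all tested probes and for 1 of the 9 tested member probes. The genotype means were 11.66 ± 0.48 and 11.39 ± 0.99 (n = 4 each), a difference of -0.27 with an SE of 0.45, which was 0.24 when the set of arrays was a term of the fit. The difference was -0.65 within the lower and 0.12 within the higher set, and it turned to 0.14 when *Cd151*-/- mouse 4, the lowest mouse, was left out.

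*Ramp3*, the other adrenomedullin partner, was read by 3 probes that ordered the mice nearly alike, with r of 0.98 to 0.99 between them over the 8 mice. The brightest, ILMN_2749052, read 11.12, 11.45, 10.85 and 9.79 in *Cd151*+/+ mice and 10.14, 10.44, 11.69 and 10.52 in *Cd151*-/- mice. Each genotype held high and low mice, and the difference was -0.10 (SE 0.41). ILMN_3152486 gave -0.14 (SE 0.47) and ILMN_3073644 gave -0.05 (SE 0.30). Within the arrays of lower background the 3 differences were -0.18, -0.16 and -0.08, and within those of higher background -0.03, -0.13 and -0.02, in the same order. Unlike *Ramp2*, *Ramp3* was lower on the arrays of higher background, by -0.89 on ILMN_2749052, with overlap. Leaving out single mice turned the sign of the difference on each of the 3 probes.

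**Figure D3:**
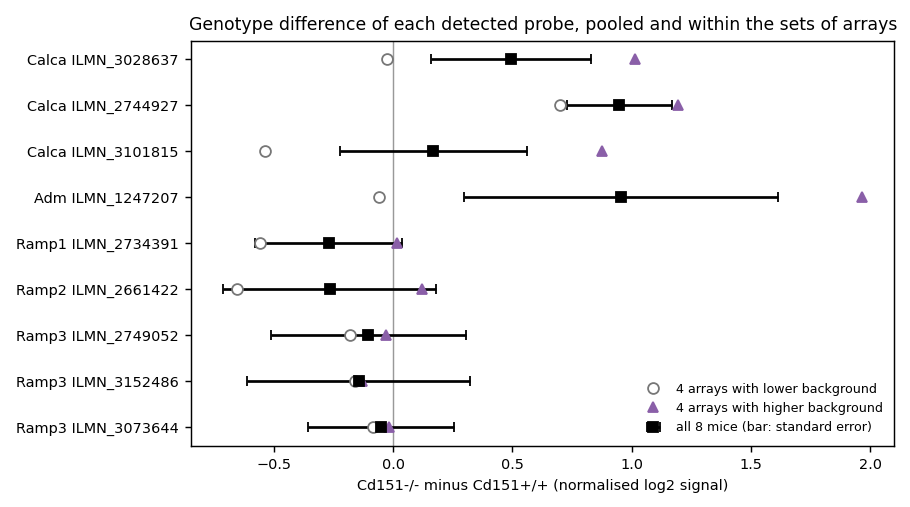
Difference between the genotypes, *Cd151*-/- minus *Cd151*+/+ in normalised log2 signal, for each detected probe, with its standard error over 8 mice and the values within each set of arrays. All 9 probes were more positive within the arrays of higher background, and *Calca* ILMN_2744927 was above 0 in both sets (0.70 and 1.19).

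Over all 14967 tested probes, 1.69% were higher and 2.61% lower in *Cd151*-/- glomeruli at an unadjusted limma p of 0.05, and 0.0334% were past Benjamini-Hochberg adjustment in either direction. Of the 9 tested member probes, 1 was higher, 0 were lower and 0 were past adjustment. Probes with genotypes that did not overlap and were higher in *Cd151*-/- made up 0.855% of those tested and 1 of the 9 member probes, *Calca* ILMN_2744927. Since *Calca* brought the family in, nothing is read from these counts. The differences were positive for 4 member probes and negative for 5.

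The other genes through which these peptides are made, bound and relayed were taken from 4 lists chosen for function, 70 genes in all, of which 48 were tested with 1 probe per gene. None rose and none fell at an unadjusted limma p of 0.05, beside 1.69% and 2.61% of all tested probes, and 0 were past adjustment. With the set of arrays as a term of the fit, *Pde8a* was higher at an unadjusted limma p of 0.05. *Adcy6*, *Arrb1*, *Furin* and *Pde3a* were lower at that threshold, and 0 were past adjustment. In that fit 780 of all 14967 tested probes were higher and 910 were lower, and nothing is read from the pathway count of 5 in 48. The median difference of the 48 genes was -0.14, with 16 above 0 and 32 below. Over all tested probes, not limited to the brightest probe of a gene, it was -0.01, with 7349 of 14967 above 0. The sets of probes are thus unlike, and the contrast was not tested. The genes named in what follows were picked for their role or their place in the list after their values were seen.

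The list of peptide relatives, processing and degradation had 9 of 11 genes on the array and 5 tested, with a median of -0.09. *Iapp*, which encodes amylin, *Pam*, which amidates these peptides, and the prohormone convertase genes *Pcsk1* and *Pcsk2* were detected on no array. The proprotein convertase gene *Furin* was at -0.45 (SE 0.25) and *Ide*, for insulin-degrading enzyme, at 0.45 (SE 0.28). *Adm2*, for intermedin, was detected on 1 of 8 arrays.

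Of the receptor partners and genes of desensitisation, 11 of 12 were tested, with a median of -0.09. The lowest was *Arrb1*, for beta-arrestin 1, at -0.69 (SE 0.40). *Ackr3*, a scavenger receptor for chemokines and adrenomedullin, was at -0.41 (SE 0.42), and *Crcp*, for the CGRP receptor component, at 0.03 (SE 0.23). None of these differences was past the test.

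Among 13 other class B receptors, 6 were tested, and their median was -0.18. *Pth1r*, the parathyroid hormone receptor gene, was detected on 8 of 8 arrays and differed by -0.33 (SE 0.24), and the others tested lay between -0.23 and 0.16. Of the 34 G protein and cyclic AMP genes, 26 were tested with a median of -0.15. *Adcy6*, for an adenylyl cyclase, was at -0.62 (SE 0.33) and the cyclic AMP phosphodiesterase gene *Pde8a*, detected on 3 of 8 arrays, at 0.45 (SE 0.29). *Gnas*, for the stimulatory G protein subunit, was at -0.32 (SE 0.55).

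**Figure D4:**
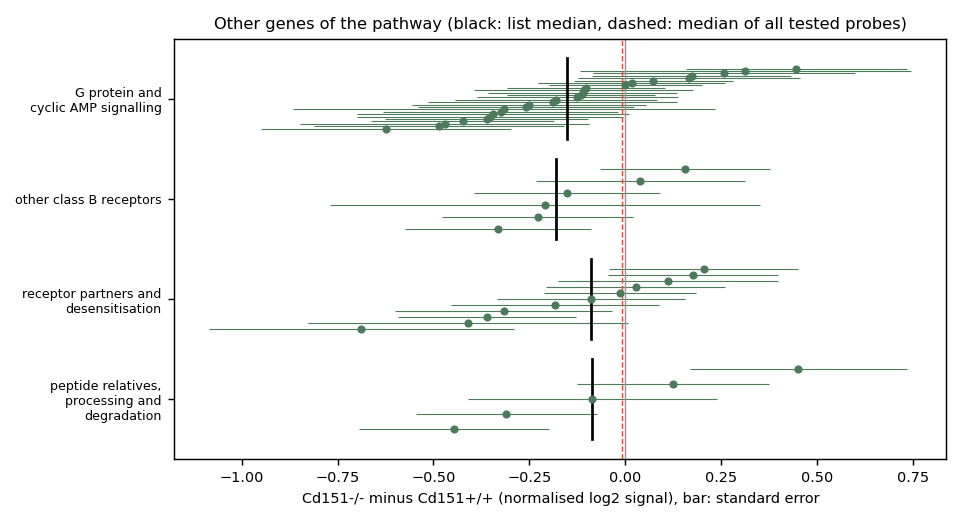
Difference between the genotypes for the 48 tested genes of the 4 functional lists, each a point with its standard error, with the list medians in black. The medians lay between -0.18 and -0.09, and the range over all 48 genes was -0.69 to 0.45.

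Because *Ramp* and *Calcrl* genes are known from vessels, the levels of the members were set beside markers of the cells that a glomerulus holds, as the mean log2 signal of the tested markers. Markers of podocytes were detected: *Ptpro*, for a podocyte receptor tyrosine phosphatase, was at 13.46 in *Cd151*+/+ and 13.03 in *Cd151*-/- mice, on 8 of 8 arrays. The endothelial list was detected in 10 of its 10 genes, although *Kdr*, for the vascular endothelial growth factor receptor, was detected on only 2 arrays. *Calcrl* was thus at background in samples in which endothelial genes such as *Emcn* were detected on 8 of 8 arrays. Of the 10 genes on the nerve list, 8 were on the array and 2 were detected, *Uchl1* on 8 arrays and *Scn10a* on 1, and the sensory neuropeptide gene *Tac1* was not detected.

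The proximal tubule markers lay higher in *Cd151*-/- mice. All 9 tested were above 0, with a median difference of 0.75 and 1 higher at an unadjusted limma p of 0.05, and their mean was 9.07 to 10.43 in *Cd151*+/+ and 10.01 to 11.07 in *Cd151*-/- mice. Of the 10 endothelial markers, 9 were below 0, with means of 10.86 to 11.38 and 10.43 to 11.29. The podocyte mean was 11.22 to 11.59 in *Cd151*+/+ and 10.62 to 11.79 in *Cd151*-/- mice, and the mesangial mean 9.92 to 10.23 and 9.23 to 10.40. Of the 6 tested mesangial markers, 2 were above 0 and 4 below. *Pdgfrb*, at -0.74 (SE 0.32), was lower at an unadjusted limma p of 0.05 and not past adjustment. *Cd151*-/- mouse 4 had the highest proximal tubule mean and the lowest podocyte and mesangial means, and it was also the mouse with the lowest *Ramp1*, *Ramp2* and *Adm*. The part of these shifts in the differences of *Calca* and *Adm* was not tested.

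Of 15 relations between a detected member gene and the podocyte, endothelial or mesangial mean over the 8 mice, 1 was past adjustment when the sets of arrays were ignored, and 0 were past it within the sets. *Ramp2* and the podocyte markers had a Pearson's r of 0.95 (exact permutation p = 0.000298, Benjamini-Hochberg adjusted p = 0.00446) and a Spearman's rho of 0.95 (exact permutation p = 0.00114, adjusted p = 0.0171). Both were split by the set of arrays: the podocyte mean was 11.45 to 11.79 on the arrays of higher background and 10.62 to 11.39 on the others, without overlap. With the set means removed and mice permuted only within their set, an alternative chosen after seeing the data, r was 0.94 (exact permutation p = 0.0208, adjusted p = 0.238). The set-removed r of *Ramp2* was also high with the mesangial markers (0.88) and the endothelial markers (0.87), each with an adjusted exact permutation p of 0.238, so it was not shown to be particular to podocytes.

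The pooled r of *Ramp2* and the podocyte markers was 0.89 without the 2 mice farthest from the median of the markers, *Cd151*-/- mice 2 and 4. It was no longer past adjustment without *Cd151*-/- mouse 4 (r of 0.91, exact permutation adjusted p = 0.0685) or with scaling of each array to its 75th percentile (r of 0.71, exact permutation adjusted p = 0.258). Each set of 4 mice is too small for a correlation of its own.

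No other relation was past adjustment, pooled or within the sets. Pooled, *Ramp2* had an r of -0.06 with the endothelial markers and 0.41 with the mesangial markers (exact permutation adjusted p = 0.890 and 0.607). *Ramp1* had an r of 0.77 with the endothelial, 0.71 with the mesangial and 0.10 with the podocyte markers (exact permutation adjusted p = 0.132, 0.132 and 0.890), and 0.70, 0.81 and 0.80 with set means removed (adjusted exact permutation p = 0.279, 0.238 and 0.238). *Ramp3* had an r of 0.77, 0.50 and -0.28 with the same markers in that order (exact permutation adjusted p = 0.132, 0.518 and 0.665), and 0.70, 0.71 and 0.59 with set means removed (adjusted exact permutation p = 0.238, 0.238 and 0.279). With the set means removed, each of the 3 genes thus had values of r of 0.59 or above with all 3 groups of markers. *Cd151*-/- mouse 4 was the lowest of its set for these genes and marker means, and these values were not computed without it. Pooled r without that mouse, for the endothelial, mesangial and podocyte markers, was 0.69, 0.62 and -0.68 for *Ramp1*. It was -0.80, -0.63 and 0.91 for *Ramp2* and 0.83, 0.72 and -0.73 for *Ramp3*, in the same order. For *Calca* ILMN_3028637 the 3 pooled values of r were -0.25, 0.46 and 0.21 with the endothelial, podocyte and mesangial markers. Their adjusted exact permutation p-values were 0.665, 0.539 and 0.747. With set means removed they were -0.01, 0.16 and 0.25 (adjusted exact permutation p = 0.981, 0.661 and 0.525). *Adm* gave pooled values of -0.30, 0.69 and 0.29, with adjusted exact permutation p-values of 0.665, 0.167 and 0.665. With set means removed its values were 0.09, 0.34 and 0.44 (adjusted exact permutation p = 0.850, 0.440 and 0.279).

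**Figure D5:**
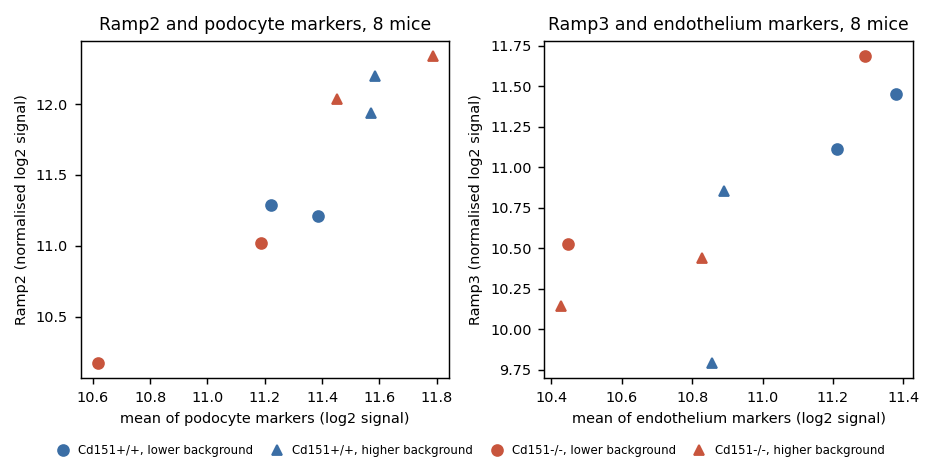
*Ramp2* against the mean of the podocyte markers (left) and *Ramp3* against the mean of the endothelial markers (right), in normalised log2 signal, 1 point per mouse. The mouse with the lowest *Ramp2* (10.17) is also the lowest for podocyte markers (10.62), and on the left the 4 mice on the arrays of higher background lie above the others on both axes. Pooled r was 0.95 on the left and 0.77 on the right.

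The genes whose levels over the 8 mice were most like those of *Calca* ILMN_3028637 were sought among 8625 genes detected on at least 4 arrays. *Ptpn11*, which encodes the tyrosine phosphatase SHP2, was first with r of 0.96, and *Jpt1* (0.93), *Tubb5* (0.92) and *Endou* (0.92) were also among the highest. With genotype means removed, the first 5 were *Ptpn11* (0.95), *Gapvd1* (0.95), *Cuedc1* (0.94), *Csnk1g2* (0.94) and *Arhgef6* (0.93). Only *Ptpn11* was in both. These are the highest of many correlations over 8 points that share their arrays, and are given as a description.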

How the data were processed

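The authors hybridised labelled RNA of 8 mice to 8 arrays and deposited signal intensity for each probe, neither background-subtracted nor normalised, beside a detection p-value from each array. GenomeStudio is the only software that the submitters' notes or methods name for these values. Groups were taken from the labels. With limma 3.58.1 (R 4.3.3), the background was inferred from the detection p-values, followed by the normexp and quantile steps of neqc with an offset of 16 and a fit of the genotypes by lmFit and eBayes across the 14967 probes detected (p of 0.05 or lower) on at least 1 array, with Benjamini-Hochberg adjustment. The methods of the study used cubic spline and SAM, and SAM was not run here. Where a gene had several probes, the one with the highest mean stood for it in lists. Current gene names were found for 17240 of 18120 symbols. Pooled correlations over the 8 mice were tested over all 40320 pairings, two-sided. For Spearman's rho without ties the smallest exact permutation p over those pairings is 4.96e-05. Correlations with set means removed were tested over the 576 orders within sets, a coarser test. Those with a mouse left out were tested over all orders of the remaining mice. The members and lists were chosen with earlier results of these data known. The rule for naming was all member probes, pathway genes past an unadjusted p of 0.05 (as reported, 0), and the 5 genes most like *Calca*, of which 1 is not reported here. The same search for *Calcrl* was not run, since it was detected on no array. Alternatives were no normexp, cubic spline, 75th percentile scaling, an offset of 50, other detection filters, blocks for replicate number or set of arrays, each set alone, trended variance, array weights and leaving out each mouse. A permutation of mice within their set of arrays was added after seeing the data. The number of arrays limits the precision. The fit and the permutation test were tested on simulated data.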

Additional observations from a re-analysis of the deposited data

How the results depend on the processing

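At an unadjusted limma p of 0.05, 643 probes differed between the genotypes. The number was 389 with scaling to the 75th percentile, 1094 with no detection filter, 1690 with a block for array set, 1080 on the lower-background arrays only, 4816 with array weights and 339 to 1391 when 1 mouse was left out. The 0 of 48 pathway genes became 2 of 66 with no detection filter and 5 of 48 with a block for array set. They were 3 of 44 on the lower-background arrays only, 16 of 48 with array weights and 0 to 3 of 46 to 48 when 1 mouse was left out. The probes tested in these settings, in that order, numbered 25697, 14967, 13334, 14967 and 14705 to 14783. Nothing is read from the pathway counts beside the counts over all probes. With the replicate block, 420 probes differed. The labels use the same mouse numbers in both genotypes and name no pairing. Same-numbered deviations correlated at -0.58, -0.40, -0.53 and -0.01, and 0 of 8 arrays correlated best with their own number. Same-numbered mice always lay in opposite sets of arrays, so these values cannot show whether the numbers pair mice. *Calca* ILMN_2744927, 0.95 above, was 0.65 without normexp. It was 1.20 when the higher-background arrays were normalised alone and 0.70 with the lower-background arrays alone. The detection filters, blocks and trended variance left it at 0.95, as they must in this balanced design. Its genotypes did not overlap, so leaving out a mouse could hardly turn its sign. Nothing is read from its direction being kept in 20 of 20 alternatives. *Calca* ILMN_3028637 and *Adm* changed sign only on the lower-background arrays alone (-0.02 for both), and the other member probes in 1 to 4 alternatives. The 1 relation to cell markers became 0 with 75th percentile scaling, where r of *Ramp2* and the podocyte markers was 0.71 (exact permutation adjusted p = 0.258), 0 with the set means removed and mice permuted within sets (r of 0.94, exact permutation adjusted p = 0.238), and 0 to 1 when 1 mouse was left out, with r of 0.91 to 0.98. The causes were not tested. *Adm* and *Ramp1* lay near background, where precision is least.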

Other observations

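Of 5 lymphatic endothelial markers, for a cell type in which adrenomedullin signalling is well known, 2 were detected: *Pdpn*, which podocytes also express, on 8 arrays and *Flt4* on 5. *Lyve1*, *Prox1* and *Ccl21a* were not. Of 10 leukocyte markers, 7 were detected on at least 1 array and 4 on all 8, with a median difference of -0.0025 and a mean of 6.33 to 6.70 in *Cd151*+/+ and 6.18 to 6.55 in *Cd151*-/- mice. The loop, distal tubule and collecting duct markers, 8 of 9 tested, had 3 differences above 0 and 5 below, with a median of -0.18. None of these genes was past an unadjusted limma p of 0.05.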
